A study of Mus musculus with 7 samples.

Results

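The cytosolic ribosomal protein genes described here are the annotated protein-coding mouse genes whose symbols begin with Rpl or Rps and a digit, together with Rpsa, Rplp0, Rplp1 and Rplp2. Leaving out 10 ribosomal S6 kinase genes, 235 pseudogenes (6 of them annotated as protein-coding, with a pseudogene symbol) and 4 X-linked genes (Rpl10, Rps4x, Rpl36a and Rpl39), the rule gave 82 of the 39179 genes in the table. Of these, 73 were conventional subunit genes, 43 of the large and 30 of the small subunit. Another 8 are close copies of conventional genes (Rpl3l, Rpl7l1, Rpl10l, Rpl22l1, Rpl36al, Rpl39l, Rps27l and Rps27rt). The last, Rps19bp1, has a name that begins alike but encodes a binding partner of Rps19 and no subunit. Genes were tested where 3 or more libraries held a value of 10 or more, and 79 of the 82 passed, among them all 73 conventional genes. The 3 that did not pass were the copies Rpl3l, Rpl10l and Rpl39l, which were listed at or near 0. Fau also encodes a subunit, but under a name outside the rule, and is given with the other TOP mRNAs.

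Ribosomal proteins of the cytosol are the protein parts of the ribosome, the particle that translates mRNA. Each conventional ribosomal protein gene encodes a subunit of the large (Rpl genes) or the small (Rps genes) particle, and a cell makes the proteins in matched amounts. Their mRNAs begin with a run of pyrimidines, the 5′ terminal oligopyrimidine (TOP) tract, through which the growth-sensing kinase complex mTORC1 controls their translation. In human patients, loss of a single copy of several of these genes causes Diamond-Blackfan anaemia, a failure of red cell production, which has made the family a subject of study in blood stem and progenitor cells.

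The cells are LSK cells, the mouse bone marrow fraction without lineage markers but with Sca-1 and Kit, which holds the blood stem cells and multipotent progenitors. The 3 Jmjd1c libraries come from Jmjd1c f/f Vav1Cre mice, whose floxed Jmjd1c gene is exposed to a Cre recombinase driven by the blood-wide Vav1 promoter. The 4 control libraries come from Vav1Cre mice. Strain is given as C57/BL6, the mice were 7 weeks old, and the groups are called Jmjd1c and control below. Both groups carry the Cre transgene; whether the control mice also carry floxed alleles is not given in the sources used here. JMJD1C is a KDM3 protein, related to enzymes that remove methyl groups from lysine 9 of histone H3. Separate animals are not stated as the source of the libraries, so the p-values speak only of the spread among these 7 libraries, and part of that may be technical.

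Jmjd1c itself checked the labels. It held 264 ± 26.3 normalized read counts in Jmjd1c libraries and 488 ± 30.4 in control libraries (SD, n = 3 and 4), a log2 fold change of -0.89 ± 0.09 (SE; adjusted p = 0.00407 in limma). The count covers the whole gene and so does not measure how complete the deletion was. Recovered reads per library ran from 4303712 in control 2 to 6436519 in control 1. The 10 LSK marker genes, such as Kit, Cd34 and Flt3, were above 0 in every library and summed to 25945 to 29378 in Jmjd1c and 24803 to 28857 in control libraries. Markers of other cells were also present. Neutrophil markers summed to 7322 to 10482 in Jmjd1c and 10755 to 14332 in control libraries, and basophil and mast cell markers to 2750 to 5166 in Jmjd1c and 6092 to 9337 in control libraries, so both sums were lower in every Jmjd1c library than in any control library. Plasma and B cell markers summed to 10148 to 30312 in Jmjd1c and 19295 to 29302 in control libraries, and the sums overlapped. The 30312 was that of Jmjd1c 3 alone, while Jmjd1c 1 and 2 held 12305 and 10148, below every control library. Taken one by one, 11 of 11 tested plasma and B cell markers had a log2 fold change below 0, with a median of -1.17, and 8 were lower at an unadjusted p under 0.05. Ighg2c and Igha, both immunoglobulin heavy chain genes, were called lower (-4.30 and -2.29; adjusted p = 0.0133 and 0.0376 in limma). Both calls were lost without control 2, control 3 or Jmjd1c 2 and without the intensity trend, and that of Igha also without control 1 or Jmjd1c 3 and after GC and length correction (adjusted p of 0.0524 to 0.207 in limma). Below 0 were also 8 of 9 neutrophil (median -0.38), 8 of 10 basophil and mast cell (-0.80) and 9 of 10 macrophage markers (-0.48). Of all tested genes 51.5% were below 0. At an unadjusted p under 0.05 in limma, 5, 6 and 2 of these markers were lower, where 7.84% of all tested genes were. Higher at that p was 1 basophil and mast cell marker, Gata2, also an LSK marker. Chil3 (neutrophil) and Prss34 (basophil and mast cell) were called lower, at -0.59 and -1.12 (adjusted p = 0.0343 and 0.0410 in limma). These calls were not followed over the alternatives. Macrophage markers summed to 2699 to 4544 in Jmjd1c and 2967 to 11169 in control libraries. The 11169 was that of control 4 alone, while control 1 to 3 held 2967, 4271 and 3779, within the Jmjd1c range. In 0 of the 10 macrophage markers did every Jmjd1c library lie below every control library, against 7.1% of all tested genes. Erythroid markers summed to 1289 to 1559 in Jmjd1c and 1174 to 1804 in control libraries. T and NK markers summed to 1617 to 2259 in Jmjd1c and 1737 to 1960 in control libraries. Most of that sum was 1 gene, Nkg7, at 1943 ± 345 in Jmjd1c and 1651 ± 154 in control libraries. Of the 10 T and NK genes 3 were tested, with log2 fold changes of 0.22 (Nkg7), -0.82 (Cd4) and -0.41 (Klrb1c). The part of these cells in the results on ribosomal protein genes was not tested. In a bulk library, fewer cells of a type and less RNA per cell cannot be told apart.

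Values are the deposited counts after division by each library's size factor, and are called normalized read counts throughout. Fold changes are on the log2(value + 1) scale and were fitted with limma across 12813 genes, with p-values adjusted over all of them. None of the 73 conventional ribosomal protein genes passed the adjusted p threshold of 0.05, at which 1.8% of all tested genes were called, 37 lower (0.289%) and 194 higher (1.51%) in Jmjd1c libraries. edgeR on the recovered reads also called 0 of them, where it called 1.82% of all genes (0.281% lower), and DESeq2 called 4, Rps9, Rps14 and Rps24 among them, all lower, where it called 4.6% of all genes and 0.913% lower. In limma Rps14 came near the threshold, with an adjusted p of 0.097. The values nevertheless lay to one side. The log2 fold change was below 0 in 70 of the 73 genes (95.9%), against 51.5% of all tested genes. Its median was -0.12 over the 43 large subunit genes and -0.13 over the 30 small subunit genes, against -0.01 over all tested genes. The median over both subunits corresponds to a value 8.39% lower in Jmjd1c than in control libraries. At an unadjusted p under 0.05 in limma, 23 genes were lower (12 large and 11 small subunit) and 0 were higher. The 23 are 31.5% of the 73, where 7.84% of all tested genes were lower at that p, 11.9% were higher and 19.7% were either. That count depended on the fit: with no intensity trend 6 genes were lower (8.22%, against 6.67% of all genes), and after quantile normalization 15 were (20.5%, against 8.41%), with medians of -0.08 for large and -0.09 for small subunit genes. In 20 of the 73 genes (27.4%) every Jmjd1c library lay below every control library, which held for 7.1% of all tested genes, and in 0 genes did every Jmjd1c library lie above, against 9.74%. Genes of this family vary together, so these counts are not those of independent genes, and no test of the family as a whole was made. After correction of each library for GC content and transcript length the medians were -0.02 for large and -0.03 for small subunit genes.

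**Figure D1:**
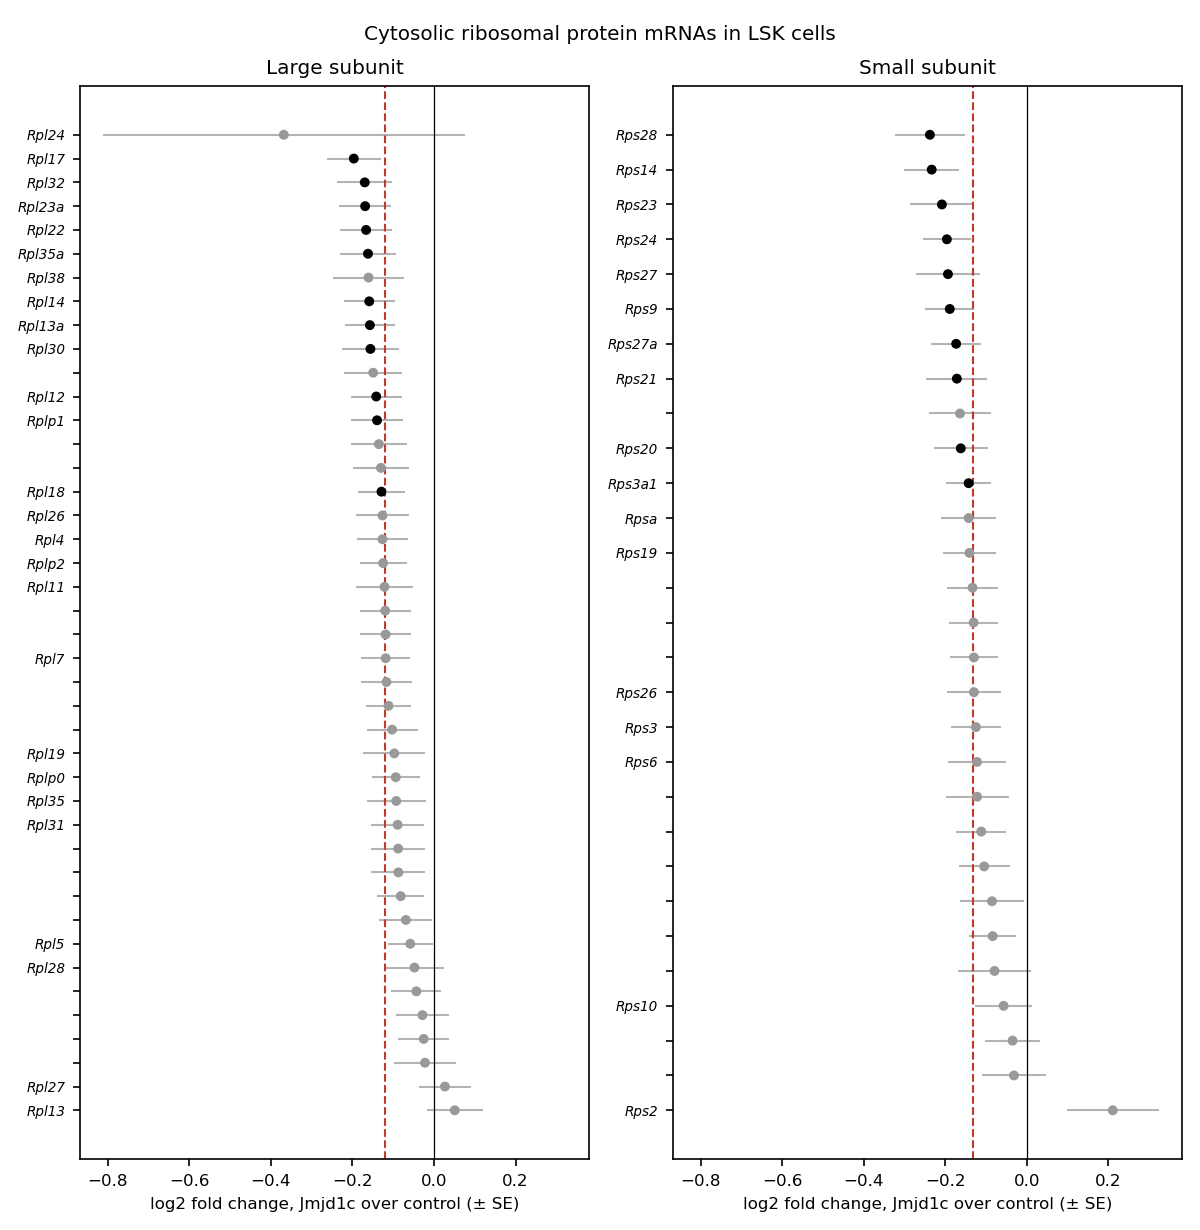
Log2 fold change (Jmjd1c over control) of 71 conventional genes on the horizontal axis, with symbols for most of those named in the text, sorted within the large (left) and small (right) subunit; bars are standard errors from limma, black points have an unadjusted p under 0.05, and the dashed lines are the medians over all genes of a subunit, -0.12 and -0.13. Of the genes drawn, all but Rpl13, Rpl27 and Rps2 lie left of 0, and none passed the adjusted threshold.

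The same side was seen in the share of all normalized reads that fell on these genes. Large subunit genes took 3.19%, 2.93% and 2.97% in Jmjd1c 1, 2 and 3, against 3.25%, 3.41%, 3.26% and 3.10% in control 1 to 4. Small subunit genes took 2.34%, 2.11% and 2.16% in the Jmjd1c libraries, against 2.42%, 2.53%, 2.43% and 2.30% in the control libraries. Both subunits together averaged 5.23% ± 0.261 in Jmjd1c and 5.67% ± 0.223 in control libraries (SD, n = 3 and 4), and the groups overlapped, since Jmjd1c 1 (5.53%) lay above control 4 (5.39%). The 7 libraries stood in the same order for both subunits. Summed large over summed small subunit values came to 1.37, 1.39 and 1.38 in Jmjd1c and 1.34, 1.35, 1.34 and 1.35 in control libraries, so the Jmjd1c libraries were all higher in this ratio, by 0.03 on average.

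**Figure D2:**
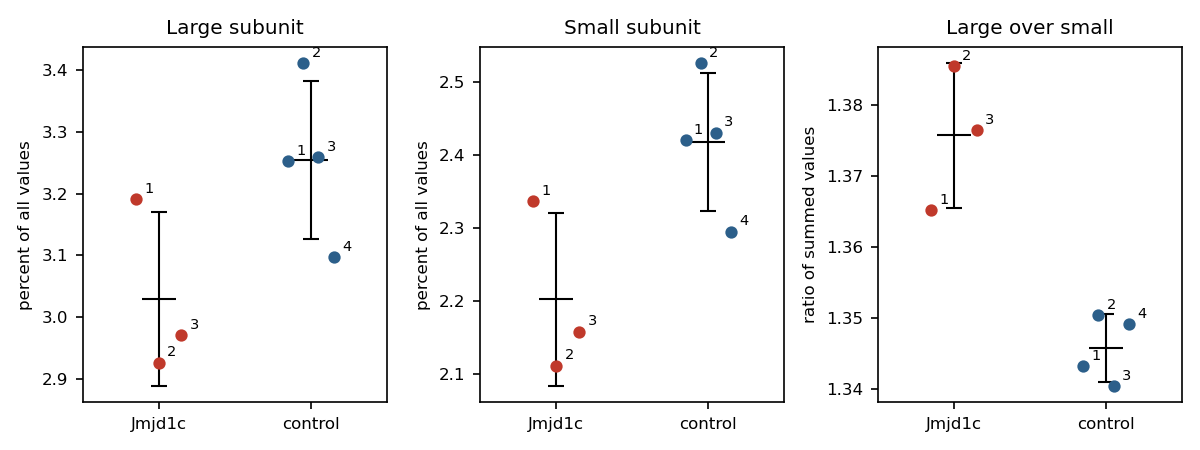
Percent of all normalized reads on large and small subunit genes, and the ratio of the summed values, one point per library with its number, Jmjd1c left and control right; bars are mean and SD, and the vertical axes do not start at 0. Jmjd1c 2 and 3 lie below all controls in both shares while Jmjd1c 1 does not, and the ratio of 1.37 to 1.39 lies above the 1.34 to 1.35 of the controls.

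The lower values lay mostly in Jmjd1c 2 and Jmjd1c 3. Relative to the mean of the control libraries, the median deviation over the 73 genes was -0.03 in Jmjd1c 1, -0.19 in Jmjd1c 2 and -0.16 in Jmjd1c 3 on the log2 scale. Among the controls it was -0.02, 0.07, -0.03 and -0.04 in control 1 to 4, so that Jmjd1c 1 lay within their range. Below all 4 controls were 20 genes in Jmjd1c 1 (27.4%), 65 in Jmjd1c 2 (89.0%) and 60 in Jmjd1c 3 (82.2%), against 18.4%, 26.5% and 27.3% of all tested genes in the same libraries. Control 2, the shallowest library, was above the control mean in all but 5 of the 73 genes. Without Jmjd1c 1 the median log2 fold change over both subunits was -0.17, 46 genes (63.0%) were lower at an unadjusted p under 0.05, where 9.1% of all genes were, and 3 passed the adjusted threshold, Rps23 and Rps28 among them, all lower, where 4.96% of all genes passed and 0.92% were lower. Without Jmjd1c 2 the median was -0.10 and 4 genes (5.48%) were lower at that unadjusted p, near the 4.65% of all genes. Without Jmjd1c 3 the median was -0.11 with 8 genes lower (11.0%, against 5.61% of all genes), and without control 2 it was -0.11 with 7 genes (9.59%, against 6.55%). The genes were steady within groups, with a median within-group SD of 0.08 on the log2 scale against 0.17 over all tested genes.

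**Figure D3:**
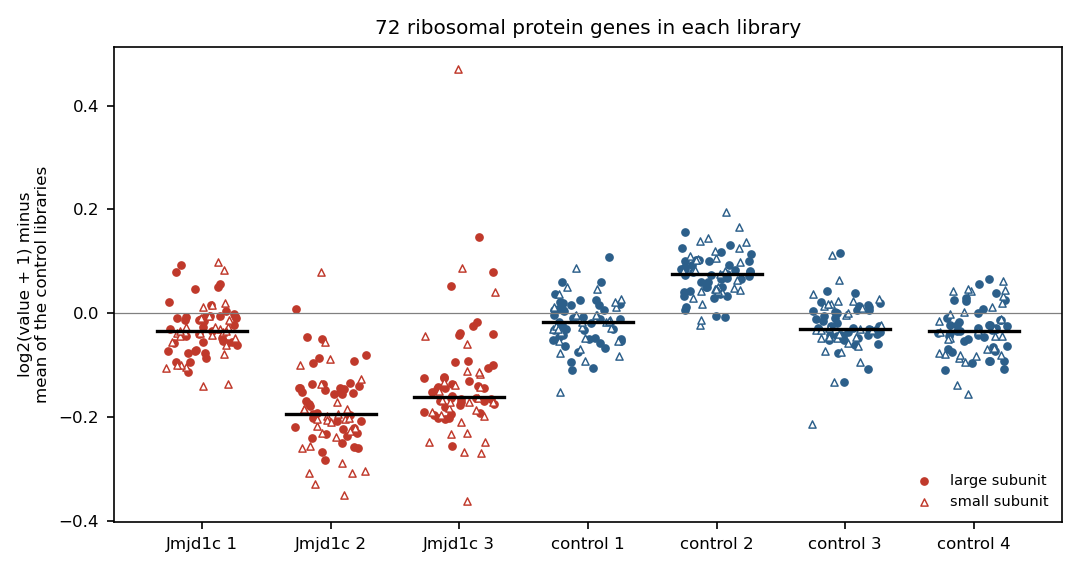
Deviation of log2(value + 1) from the control mean for 72 conventional genes (without Rpl24, whose reads are few) in each library; filled points are large and open triangles small subunit genes, and the black bars are the medians. Jmjd1c 1 sits among the control libraries, and Jmjd1c 2 and 3 sit lower.

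Among the small subunit genes with the smallest unadjusted p were Rps14, Rps24 and Rps9. Rps14, a platform protein whose loss contributes to the anaemia of the human 5q- syndrome, held 10863, 9799 and 9927 normalized read counts in Jmjd1c 1, 2 and 3, against 11927, 11866, 12945 and 11211 in control 1 to 4. These groups did not overlap, with a log2 fold change of -0.23 ± 0.07 (adjusted p = 0.097 in limma). Rps24 (ENSMUSG00000025290; mm10 chr14:24487125-24496959, plus strand), one of the genes mutated in human Diamond-Blackfan anaemia, held 2563, 2422 and 2399 in Jmjd1c and 2859, 2918, 2838 and 2662 in control libraries, a difference of -0.20 ± 0.06 (adjusted p = 0.104 in limma). Rps9, a protein near the entry of the mRNA path, held 11303, 10149 and 10474 in Jmjd1c and 11982, 12510, 11875 and 12108 in control libraries, a difference of -0.19 ± 0.06 (adjusted p = 0.125 in limma). In each of the 3 genes the highest Jmjd1c library was Jmjd1c 1.

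Of the 6 small subunit proteins listed as lining the mRNA channel or the decoding site (Rps2, Rps3, Rps14, Rps23, Rps26 and Rps28), 0 passed the adjusted threshold and 3 were lower at an unadjusted p under 0.05, with a median of -0.17. At that p 31.5% of the 73 genes and 7.84% of all tested genes were lower. Rps23, which sits at the decoding centre, held 2819, 2285 and 2385 in Jmjd1c and 2865, 3091, 2826 and 2717 in control libraries, so Jmjd1c 1 lay within the control range (-0.21 ± 0.08). Rps28, at the exit of the mRNA, held 667, 554 and 534 in Jmjd1c and 651, 707, 718 and 672 in control libraries, with the lowest log2 fold change of the small subunit (-0.24 ± 0.09; adjusted p = 0.164 in limma), again with Jmjd1c 1 inside the control range. Rps3, a protein at the entry of the mRNA path, and Rps26, at its exit, had log2 fold changes of -0.12 and -0.13. Further genes with an unadjusted p under 0.05 were Rps27 (-0.19), Rps27a (-0.17), which is made as a fusion with ubiquitin, Rps21 (-0.17), Rps20 (-0.16) and Rps3a1 (-0.14). Rps6, the substrate of the S6 kinases, held 4463, 3815 and 3920 in Jmjd1c and 4403, 4794, 4271 and 4209 in control libraries, groups that overlapped (-0.12 ± 0.07).

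Among the large subunit genes the lowest log2 fold changes with an unadjusted p under 0.05 were those of Rpl17 (-0.20), Rpl32 (-0.17), Rpl23a (-0.17), Rpl22 (-0.17) and Rpl35a (-0.16). Rpl17, which lines the tunnel through which the new protein leaves the ribosome, held 1874, 1646 and 1651 in Jmjd1c and 1904, 2071, 1913 and 2004 in control libraries, with no overlap (adjusted p = 0.142 in limma). Rpl23a (ENSMUSG00000058546; mm10 chr11:78180932-78183584, minus strand), the docking site of the signal recognition particle at the tunnel exit, held 1883, 1748 and 1812 in Jmjd1c and 1995, 2212, 1987 and 1969 in control libraries, also with no overlap. Over the 6 proteins listed at the tunnel exit (Rpl17, Rpl19, Rpl23a, Rpl26, Rpl31 and Rpl35) the median was -0.11, with 6 of 6 below 0 and 2 lower at an unadjusted p under 0.05. Of the 73 genes 95.9% were below 0 and 31.5% lower at that p, against 51.5% and 7.84% of all tested genes. Rpl32, the gene with the highest level per length in the family, held 12388, 10632 and 11530 in Jmjd1c and 12643, 13543, 13103 and 12460 in control libraries, which did not overlap. Rpl22, an RNA-binding protein needed for T cell development in mice, held 2079, 1856 and 2004 in Jmjd1c and 2277, 2314, 2212 and 2082 in control libraries. Its groups were separated only by the gap between Jmjd1c 1 and control 4.

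The stalk that recruits the elongation factors is built of Rplp0 with Rplp1 and Rplp2, and its 3 genes had log2 fold changes of -0.09, -0.14 and -0.12. Rplp0, a common reference gene in PCR assays, held 11610, 10724 and 11011 in Jmjd1c and 12060, 12185, 11514 and 11667 in control libraries, which overlapped, and its log2 fold change was 0.0405 after quantile normalization. Rpl5 and Rpl11 bind the 5S ribosomal RNA and, when free of ribosomes, the p53 inhibitor MDM2. Rpl5 held 1583, 1542 and 1590 in Jmjd1c and 1654, 1686, 1594 and 1611 in control libraries, which did not overlap although the difference was small (-0.06 ± 0.06, unadjusted p = 0.314 in limma). Rpl11 held 1796, 1646 and 1596 in Jmjd1c and 1746, 1999, 1830 and 1735 in control libraries, which overlapped (-0.12 ± 0.07). Rpl4, part of the wall of the tunnel and the gene with the highest value, held 22311, 21023 and 20545 in Jmjd1c and 22500, 23757, 23862 and 22823 in control libraries, with a narrow gap between the groups (-0.13 ± 0.06, but 0.0543 after quantile normalization). Others of the large subunit with an unadjusted p under 0.05 were Rpl13a, Rpl14 and Rpl30 at -0.16, Rplp1 and Rpl12 at -0.14 and Rpl18 at -0.13.

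**Figure D4:**
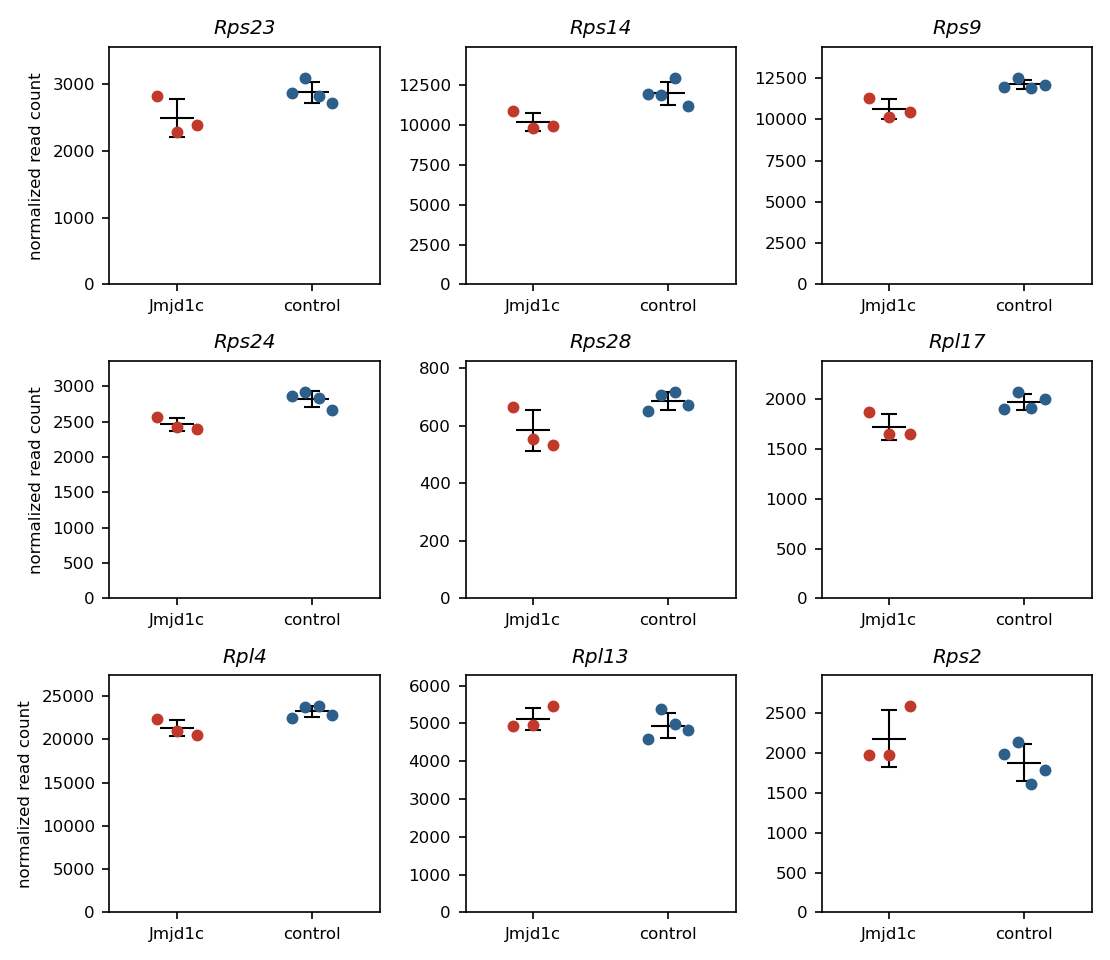
Normalized read counts of 9 ribosomal protein genes in each library, Jmjd1c left and control right, with mean and SD; the vertical axes start at 0 and differ between genes. Rps14, Rps9, Rps24, Rpl17 and Rpl4 show Jmjd1c values below all control values, Rps23, Rps28 and Rpl13 overlap, and Rps2 has 1 high Jmjd1c library at 2589.

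Genes whose human counterparts are mutated in Diamond-Blackfan anaemia had values like those of the whole family, though no test of that was made. Of the 20 on the list, 19 were below 0, 5 were lower at an unadjusted p under 0.05 (Rps24, Rps27, Rps28, Rpl18 and Rpl35a), 0 passed the adjusted threshold, and the median was -0.12. Over the 73 genes 95.9% were below 0 and 31.5% lower at that p, against 51.5% and 7.84% of all tested genes. Rps19, the gene most often mutated in the human disease, held 7605, 6798 and 6960 in Jmjd1c and 7744, 8294, 7970 and 7381 in control libraries. Those groups overlapped, with a log2 fold change of -0.14 ± 0.06 (adjusted p = 0.257 in limma). Rpl27 was the 1 gene of the list above 0, at 0.03.

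In this fit 3 conventional genes had a log2 fold change above 0. Rps2, which lies at the entry of the mRNA path, held 1978, 1972 and 2589 in Jmjd1c and 1982, 2139, 1610 and 1781 in control libraries. Jmjd1c 3 alone was above all controls, and the difference of 0.21 ± 0.11 was not called (adjusted p = 0.322 in limma). Rpl13 held 4928, 4960 and 5460 in Jmjd1c and 4586, 5380, 4986 and 4815 in control libraries (0.05 ± 0.07), and Rpl27 held 866, 791 and 850 in Jmjd1c and 802, 863, 803 and 812 in control libraries (0.03 ± 0.06). Both genes overlapped between the groups. Rpl24 had the lowest log2 fold change of all, -0.37, but with a standard error of 0.44: it was listed with 3 to 18 recovered reads per library, at 12.4, 13.4 and 3.52 normalized read counts in Jmjd1c and 9.6, 8.45, 12.8 and 15.7 in control libraries.

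Close copies of conventional genes gave a mixed picture. Rpl7l1, a copy of Rpl7, held 1773, 1805 and 1637 in Jmjd1c and 1672, 2057, 2223 and 2144 in control libraries, with control 1 inside the Jmjd1c range (-0.21 ± 0.09; adjusted p = 0.232 in limma). Rps27rt, at 110 to 134 in Jmjd1c and 119 to 140 in control libraries, had a log2 fold change of -0.10, Rpl22l1 one of -0.07, Rps27l one of 0.00 and Rpl36al one of 0.03. Since a ratio of copies within a library does not depend on its scaling, the copy was also expressed as a percentage of its partner. Rpl22l1 came to 34.8%, 36.5% and 33.6% of Rpl22 in Jmjd1c and 32.4%, 32.1%, 32.8% and 33.2% in control libraries. Every Jmjd1c library was above every control library, by 0.10 on the log2 scale (two-sided exact permutation p = 0.0286, the smallest that 35 splits allow, and 0.0857 adjusted over 3 pairs). Rps27l came to 46.3%, 51.4% and 52.1% of Rps27 in Jmjd1c and 46.5%, 40.7%, 42.9% and 44.2% in control libraries, a difference of 0.20 on the log2 scale (exact permutation p = 0.0857, adjusted 0.129). Rpl7l1 came to 26.6%, 29.4% and 25.7% of Rpl7 in Jmjd1c and 24%, 28%, 32.6% and 32.4% in control libraries (-0.09, exact permutation p = 0.514). No ratio passed after adjustment. Rps19bp1, the binding partner, held 100, 95.8 and 89.2 in Jmjd1c and 76.8, 79.7, 79.3 and 70.0 in control libraries, with no overlap, at 0.31 ± 0.13 (adjusted p = 0.217 in limma).

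Levels differed far more between members than between groups. The 5 genes with the highest values, Rpl4, Rps3, Rpl32, Rpl3 and Rplp0, held 25% of the summed values of the 73. Per kilobase of the chosen transcript, the highest levels were those of Rpl32 (23846), Rps14 (18794), Rps9 (15294) and Rpl4 (14566), and the median was 2811. The lowest were those of Rpl24 (16), Rps15a (362), Rpl31 (717) and Rpl5 (787) per kilobase, though the transcript model used for Rps15a, at 5179 bases, is long and lowers its value. Ribosomal protein genes have many processed pseudogenes of nearly the same sequence, and reads that match a gene and its pseudogene can be lost or split in counting, so a low level is uncertain. Rps12 had 22 pseudogene rows bearing its name, Rpl31 had 21, Rps19 had 14 and Rpl21 had 11. Of the other genes named as lowest, Rps15a had 8, Rpl5 had 2 and Rpl24 had 0. Across the 73 genes, the number of pseudogene rows and the level per kilobase had a Spearman's rho of -0.29, a description over genes that share their libraries. Pseudogene rows with such names held 0.0562% to 0.0675% of all values, or 1.11% to 1.19% of the summed values of the 73 genes. Only pseudogenes with an Rpl or Rps symbol were counted. Any under other symbols are left out of these row counts, this correlation and these shares, which are therefore minimums for the counts and shares.

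RefSeq windows around the start site (GRCm38.p6, 250 bases before to 50 after the start) were found for 53 of the 73 genes. The letters CTTTCC, a pyrimidine run of the kind found at TOP start sites, occurred on the sense strand in 41.5% of the 53 genes, against 16% of all genes with a window, and on either strand in 50.9% against 29.3%. CCGGAAG, the letters of an ETS-family site bound by factors such as GABP, occurred on either strand in 43.4% against 9.93%, and TATAAA, the letters of a TATA box, in 7.55% against 15.7%. A CTTTCC and a CCGGAAG on the same strand can share the letters CC. These are matches of letters and not shown sites. The median log2 fold change was -0.12 both for genes with CTTTCC on the sense strand and for genes without it, and for CCGGAAG on either strand it was -0.11 with and -0.13 without. The following windows, 30 bases before and 30 from the start on, are shown as examples of both letter runs, which are in capitals; the base at position 31 is the annotated start. Rps27 (chr3:90213619-90213678, minus strand), Rpl35a (chr16:33056452-33056511, plus strand), Rpl38 (chr11:114668550-114668609, plus strand), Rps10 (chr17:27635215-27635274, minus strand) and Rpl28 (chr7:4792935-4792994, plus strand) are 5 of the 7 genes found with a CTTTCC that begins within the first 5 bases from the start on. Rpl38 and Rps10 also carry CCGGAAG. Rps3a1 (chr3:86142639-86142698, minus strand) carries CCGGAAG alone.
Rps27: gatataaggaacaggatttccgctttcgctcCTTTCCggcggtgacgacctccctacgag
Rpl35a: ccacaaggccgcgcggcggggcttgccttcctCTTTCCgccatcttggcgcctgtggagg
Rpl38: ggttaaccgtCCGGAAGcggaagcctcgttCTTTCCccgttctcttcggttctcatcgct
Rps10: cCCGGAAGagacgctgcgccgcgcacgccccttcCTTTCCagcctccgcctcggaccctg
Rpl28: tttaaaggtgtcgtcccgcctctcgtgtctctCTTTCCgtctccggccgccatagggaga
Rps3a1: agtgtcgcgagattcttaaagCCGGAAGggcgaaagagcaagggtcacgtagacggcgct
Their log2 fold changes were -0.19 for Rps27, -0.16 for Rpl35a, -0.16 for Rpl38, -0.06 for Rps10, -0.05 for Rpl28 and -0.14 for Rps3a1, and those of Rpl18 and Rpl15, which also carry CTTTCC within the first 5 bases, were -0.13 and -0.04. The 7 genes with CTTTCC there ran from -0.19 to -0.04.

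Ribosomal protein mRNAs are short, with a median of 833 bases against 2706 for all tested genes, and in these libraries the fold change moved with transcript length. Over the other tested genes the median log2 fold change was -0.13 for transcripts up to 500 bases (n = 397), -0.07 above 500 and up to 1000 (n = 1009), -0.03 above 1000 and up to 2000 (n = 2777), 0.00 above 2000 and up to 4000 (n = 4990) and 0.03 above 4000 (n = 3425). Ribosomal protein genes had medians of -0.14 (n = 12), -0.13 (n = 37) and -0.12 (n = 20) in the 3 shorter ranges, and of -0.16 (n = 3) in the next. For transcripts up to 500 bases, 41.7% of ribosomal protein genes were lower at an unadjusted p under 0.05 in limma, against 9.32% of other genes. Above 500 and up to 1000 bases the shares were 29.7% and 9.91%. Below 0 in these ranges were 100% and 91.9% of ribosomal protein genes, against 70.5% and 62.4% of other genes. Of the other genes with a mean value of at least 1000 and a transcript of at most 1000 bases, 69 in number, the median was -0.09, 71.0% were below 0 and 30.4% were lower at an unadjusted p under 0.05. Other genes with a mean value of at least 1000 and of any length, 951 in number, had a median of 0.00. In all these comparisons the other genes are the tested genes outside the 82 of the rule. Fau and the other TOP mRNAs given below are thus among them, as is any X-linked subunit gene or ribosomal pseudogene that passed the filter. Their part in these medians was not tested. With the correction for GC content and transcript length named above, 44 of the 73 genes were below 0 and 5 (6.85%) were lower at an unadjusted p under 0.05, near the 6.54% of all genes in that fit. Correction for length alone, chosen after seeing the data, gave -0.03 and -0.04 with 51 below 0, and correction for GC content alone gave -0.12 and -0.14 with 67 below 0. Within the family itself, transcript length and log2 fold change had a Spearman's rho of 0.21 over the 73 genes.

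**Figure D5:**
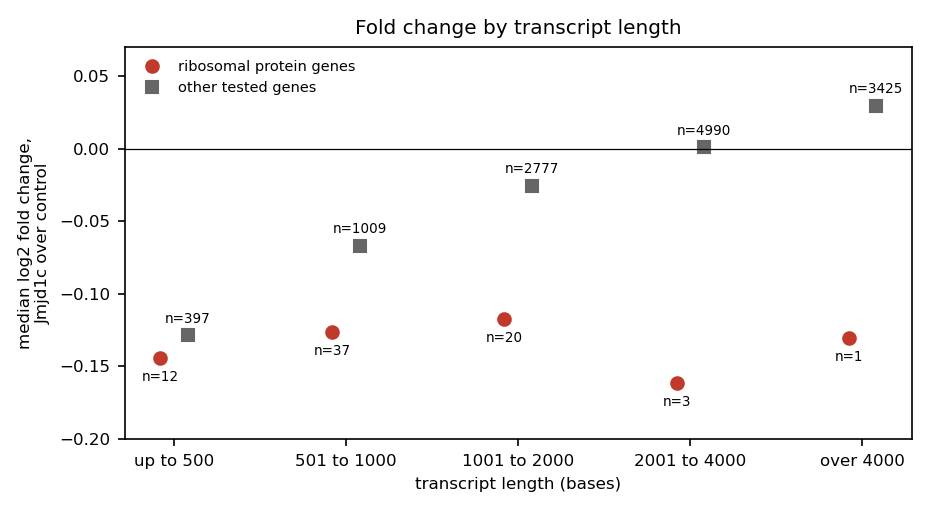
Median log2 fold change (Jmjd1c over control) by transcript length in bases, for ribosomal protein genes (circles) and all other tested genes (squares), with the number of genes beside each point. The other genes run from -0.13 for the shortest to 0.03 for the longest transcripts, and ribosomal protein genes lie between -0.12 and -0.16 in every range. The squares leave out the copies and Rps19bp1. They include Fau, the other TOP mRNAs and any X-linked subunit gene or ribosomal pseudogene that passed the filter.

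Other genes of the pathway gave mixed values. Of 27 other TOP mRNAs tested, 1 was called higher, 0 were called lower and the median was -0.02. At an unadjusted p under 0.05, 3 were lower and 4 higher, where 7.84% of all tested genes were lower and 11.9% higher. Pabpc1, the cytoplasmic poly(A) binding protein, rose to 3911 ± 578 in Jmjd1c libraries, against 2603 ± 312 in control libraries (log2 fold change 0.58 ± 0.11; adjusted p = 0.0343 in limma). That call was lost without control 2, control 3, Jmjd1c 2 or Jmjd1c 3 (adjusted p = 0.0649, 0.104, 0.174 and 0.116 in limma), and without the intensity trend, where Jmjd1c itself did not pass either (adjusted p = 0.150 for Pabpc1 and 0.117 for Jmjd1c in limma). Eif4a2, a helicase of translation initiation, stood at 2816 ± 43.3 in Jmjd1c and 3357 ± 167 in control libraries, -0.25 ± 0.06, just outside the threshold (adjusted p = 0.0538 in limma). Fau, which encodes the small subunit protein Rps30 as a fusion, stood at -0.21 ± 0.08 on the log2 scale (adjusted p = 0.18 in limma), much like Rps28 and Rps23. Elongation factors Eef1a1 and Eef2 had log2 fold changes of -0.12 and -0.13, and nucleophosmin (Npm1) one of -0.01; that of Eef2 was 0.0187 after quantile normalization.

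Of 18 tested genes of mTORC1 and the control of TOP translation, 0 passed the adjusted threshold, 5 were higher and 0 lower at an unadjusted p under 0.05, where 11.9% of all tested genes were higher and 7.84% lower, and the median was 0.10. The 5 included Akt1s1, an mTORC1 inhibitor (0.69 ± 0.25, adjusted p = 0.167 in limma), and Pdcd4, an inhibitor of translation initiation (0.25 ± 0.09, adjusted p = 0.175 in limma). The others were Mtor itself (0.37), Tsc2 (0.28) and Larp1 (0.21). Akt1s1 held 56.3 to 129 in Jmjd1c and 43.1 to 59.1 in control libraries, which overlapped. In 0 of the 18 genes did every Jmjd1c library lie above every control library, against 9.74% of all tested genes. Among 14 chaperones and import factors of ribosomal proteins, 0 passed, 5 were higher at an unadjusted p under 0.05 (11.9% of all tested genes were) and the median was 0.14. The importin Ipo5 stood at 1910 ± 118 in Jmjd1c and 1594 ± 105 in control libraries (0.26 ± 0.07; adjusted p = 0.0779 in limma) and Ipo9 at 1173 ± 98.5 in Jmjd1c and 962 ± 69.6 in control libraries (0.28 ± 0.08; adjusted p = 0.0877 in limma). Of 10 transcription factors linked to ribosomal protein promoters, 0 passed and 0 had an unadjusted p under 0.05, where 19.7% of all tested genes had. Zbtb7a and Yy1 came nearest, at 0.29 and -0.24, and Gabpa, the DNA-binding part of GABP, was at 0.12.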

How the data were processed

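RNA of LSK cells was extracted with Trizol, amplified with a SMARTer Ultra Low kit and sequenced from Illumina paired-end libraries, per the labels' protocols. The deposited values are a normalized signal, 1 per gene and library. Trim Galore 0.2.8, STAR, HTSeq 0.6.1p1, DESeq 1.18.0 and the build mm10 appear in the submitters' processing notes. The sources used here do not give the annotation release, strand setting or filters, so overlapping and antisense genes cannot be told apart. Values were whole multiples of a step per library, as the deposited counts divided by a size factor would be; 100% came out whole within 0.01 of a read. Unused columns numbered 0. Libraries held 4303712 to 6436519 reads; counting error matters most for genes with few reads, such as Rpl24.

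Symbols matched 37693 of 39179 IDs. Limma 3.58.1 (R 4.3.3, with intensity trend) was fitted to log2(value + 1) for the 12813 genes that reached a value of 10 in 3 or more libraries, Jmjd1c minus control, no covariate, Benjamini-Hochberg adjustment, threshold 0.05. Errors are SDs of values and standard errors of fold changes. Ratios of copies used a two-sided exact permutation test. Alternatives were edgeR 4.0.16, DESeq2 1.42.0, other pseudocounts, filters, scalings, weights and left-out libraries. On simulated data for 12813 genes, 71% of 1.5-fold and 92% of 2-fold changes were called; smaller changes were not simulated. Length and GC content are of 1 transcript per gene (GENCODE M21, GRCm38): coding, principal, tied to curated RefSeq, then shortest; 136 tested genes had none. Genes named are those with an unadjusted p under 0.05, the 10 lowest and highest fold changes, copies and partners, listed structural and disease genes, and the leading genes of each other list; genes named for their level or their start-site letters were chosen after their values were seen. A few genes that meet these rules are not reported here. Members and lists were chosen with earlier results of these data known.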

Additional observations from a re-analysis of the deposited data

Results flagged for a closer look

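Dixon's test was applied to 72 sets of 4 control values and marked 2 of them, where chance marks about 1 in 20. In both, control 2 stood above the other controls: Rpl23a held 2212 normalized read counts there, against 1969 to 1995 in the other controls, and Rpl30 held 1074, against 974 to 980. Jmjd1c libraries held 1748 to 1883 for Rpl23a and 859 to 971 for Rpl30. The groups do not overlap for either gene.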

How the results depend on the processing

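With each library left out in turn, 0 to 3 ribosomal protein genes and 3 to 631 of all tested genes passed the adjusted threshold, and the medians ran from -0.17 to -0.09 for large and from -0.19 to -0.10 for small subunit genes. DESeq2 called 4 ribosomal protein genes and 590 of all genes, and a threshold of 0.1 called 2 and 716. When limma was run with no intensity trend it called 0 of all genes at the adjusted threshold, and 2213 at an unadjusted p under 0.05, with 6 ribosomal protein genes lower at that p, against 23 with the trend. Correction for GC content and length called 35 of all genes, with medians of -0.0163 for large and -0.0306 for small subunit genes. Correction for GC content alone called 82, and correction for length alone gave medians of -0.0334 and -0.0415. Both single corrections were chosen after seeing the data. The alternatives were followed for most of the named genes. Over these, 1414 of 1492 alternative values kept their direction and side of the threshold. Of the rest, 18 (of Pabpc1, Jmjd1c, Ighg2c and Igha) no longer passed it, 17 passed it anew and 43 changed sign. No cause was tested.

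Sign changes of the log2 fold change were as follows. After GC content and length correction: Rps27 0.0138, Rps21 0.00099, Rps26 0.0431, Rps6 0.0155, Rpl32 0.0111, Rpl23a 0.0148, Rpl35a 0.0423, Rpl30 0.0383, Rpl5 0.0523, Rpl7 0.0254, Rpl22l1 0.23, Rps27rt 0.15, Rpl26 0.0573, Rpl28 0.0273, Npm1 0.14 and Rpl31 0.0648. After GC correction alone: Rpl5 0.0318, Rpl13 -0.075, Npm1 0.0867 and Rpl22l1 0.055. After length correction alone: Rpl22l1 0.0573, Rps27rt 0.0528, Rpl19 0.00018, Rps10 0.0242, Rpl28 0.0083 and Rpl26 0.0028. After quantile normalization: Rpl4 0.0543, Rplp0 0.0405, Eef2 0.0187, Npm1 0.0976 and Rps27l -0.0106. Rps27l was -0.00085 with array weights, -0.0013 in DESeq2 and between -0.0266 and 0.0375 with libraries left out. Over left-out libraries Rpl24 ran from -0.66 (without Jmjd1c 2) to 0.17 (without Jmjd1c 3), Rpl36al from -0.0222 (without Jmjd1c 3) to 0.0824 (without control 2), Npm1 from -0.0359 to 0.0150, Rps10 from -0.10 to 0.0174 and Rpl28 from -0.12 to 0.00092.

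Same-numbered libraries did not vary together (correlations of -0.15, -0.0021 and 0.02 for numbers 1, 2 and 3). The largest correlation between the groups was that of Jmjd1c 1 with control 4, at 0.32. The numbers were used as names of libraries only, and such correlations cannot show whether libraries shared a batch. With the replicate number as a block on libraries 1 to 3, 0 ribosomal protein genes and 15 of all genes were called, and the medians were -0.13 and -0.14. The block on the ratios of copies gave log2 differences of 0.11 for Rpl22l1 over Rpl22, 0.20 for Rps27l over Rps27 and -0.04 for Rpl7l1 over Rpl7, where 3 pairs cannot reach the threshold.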
